A study of Mus musculus with 9 samples.

Results

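The genes described here are 41 genes of the S phase, the part of the cell cycle in which a cell copies its DNA. They were taken by symbol, by a rule that uses no measured value but was set with earlier results of these data known, and all 41 were among the 31053 genes counted. Each was read in cell classes gated by marker genes and in 3 mouse strains. The cells were bone marrow cells of the femur after lysis of red cells, from 9 female mice of 9 to 10 weeks, profiled one by one by counting the 3' ends of transcripts. NZB and NZW are inbred strains, and NZBWF1 mice, their first-generation cross, are a model of lupus. Each group held 3 mice, the labels gave no treatment, and an NZBWF1 mouse carried 1 genome of each parent, so that each parent strain served as a control for the cross. The mice were separate animals of a single vendor, so n counts mice.

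DNA replication runs in ordered steps. Licensing factors load the MCM helicase onto origins before S phase, firing factors switch it on, and polymerases with a sliding clamp copy the strands while ribonucleotide reductase and thymidylate synthase supply the building blocks. The new DNA is packed with histones and remethylated, and checkpoint and repair proteins guard the forks. Bone marrow is among the most proliferative tissues of the body, and transcripts of these genes mark the precursors that still divide. E2F transcription factors drive many of these genes as cells enter the cycle.

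The kept cells numbered 2455 to 5684 per mouse, 39051 in all, with 8106539 to 18663189 UMIs, transcripts counted once each, per mouse and a median of 2182.5 to 2536.5 per cell. The 41 members held 401877 of these UMIs, 0.319%. Cells that passed gates of 2 lineages, 3958 (10.1%), and cells that passed none, 1245 (3.19%), were left out of the classes. Among the kept cells, 342 (0.876%) had a barcode sequence that another library also held. The free RNA of the droplets, set against the median depth of a cell, was 0.485% to 0.776%, or 0.0395 to 0.0657 member UMIs per cell. Class names end in "-like" because they rest on markers. B-lineage-like cells that met neither the surrogate light chain gate of pre-BCR B-like cells nor the gate of mature B-like cells are called remaining B-lineage-like: they held markers of small pre-B cells, which are at rest, but their summed level of replication genes was near that of pre-BCR B-like cells, so that name was not used. The late erythroid-like class had at least 10 cells in 7 mice and the plasma cell-like class in 5, and all other classes named here in 9.

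Short sequences read by E2F factors stood in the promoters of some of the members. RefSeq windows of 250 bases before to 50 bases after a gene's start, in the GRCm38.p6 reference genome, which is of neither NZB nor NZW, were found for 31 of the 41 members, 34 windows in all. The letters TTTCCCGC, TTTGGCGC, TTTGCCGC or TTTCGCGC, searched on both strands, stood in 12 of the 34 (35.3%), against 744 of 32851 windows of all genes (2.26%). CCAAT, the motif of the factor NF-Y, stood in 23 of 34 (67.6%), against 37.4% of all windows. The stretches of 4 members described further on are given with the E2F letters in capitals, from 5′ to 3′ on the strand of the gene. Cdca7 and Mcm5 are on the plus strand at chr2:72476128-72476175 and chr8:75109336-75109387, and Dtl and Mcm6 on the minus strand at chr1:191575525-191575572 and chr1:128359725-128359835.
Cdca7: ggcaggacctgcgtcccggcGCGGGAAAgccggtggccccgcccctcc
Mcm5: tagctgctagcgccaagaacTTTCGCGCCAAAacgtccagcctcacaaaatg
Dtl: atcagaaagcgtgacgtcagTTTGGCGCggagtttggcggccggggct
Mcm6: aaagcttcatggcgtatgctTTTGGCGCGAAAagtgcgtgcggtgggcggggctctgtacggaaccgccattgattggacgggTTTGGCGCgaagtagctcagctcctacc
In Mcm5 and in the first match of Mcm6, 2 of the motifs overlap on opposite strands. The windows of Pcna, Rrm2, Slbp and Ung held none of these 4 words, which says only that these letters were not in that window.

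The summed level of the 41 members, in CPM (UMIs per 1000000 UMIs of a class), was highest in erythroid and B-lineage precursors. Late erythroid-like cells, hemoglobin-making precursors that still have a nucleus, held 9726 ± 515 (SD, n = 7), with every mouse between 8789 and 10511. Early erythroid-like cells held 6177 ± 705, pre-BCR B-like cells 6105 ± 560 and remaining B-lineage-like cells 5894 ± 895 (SD, n = 9), and the ranges of these 3 classes overlapped each other. Granulocyte-monocyte precursor-like cells, the myeloid precursors that make granule enzymes, came next with 3698 ± 344, and stem or early progenitor-like cells followed with 3506 ± 1029. At the other end, mature neutrophil-like cells held 415 ± 190 (SD, n = 9) and plasma cell-like cells 191 ± 55.3 (SD, n = 5).

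Of the 13 steps down this order, 3 separated classes whose mice did not overlap: late from early erythroid-like, remaining B-lineage-like from granulocyte-monocyte precursor-like, and plasmacytoid dendritic-like from mature neutrophil-like cells. Between them, monocyte-like cells held 2390 ± 370, NK-like cells 2378 ± 586, mature B-like cells 1865 ± 662, T-like cells 1597 ± 635, immature neutrophil-like cells 1417 ± 189 and plasmacytoid dendritic-like cells 1358 ± 306 (SD, n = 9). Only neighbours in the order were compared for overlap. The highest stem or early progenitor-like mouse, at 5409, lay above the lowest remaining B-lineage-like mouse, at 4942. A level summed over a class cannot tell fewer cycling cells from less RNA of these genes per cell.

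**Figure D1:**
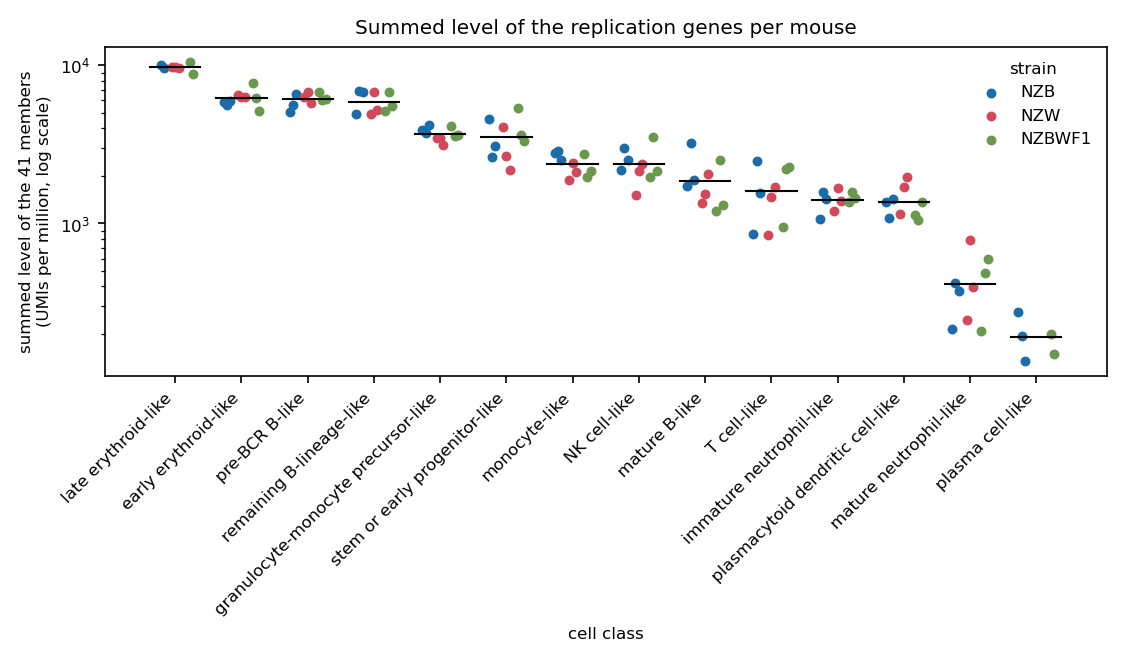
Summed level of the 41 members in each of 14 cell classes, in CPM of the class on a log axis. Each point is 1 mouse, coloured by strain, and the black line is the mean over mice. The 7 late erythroid-like values lie between 8789 and 10511, and the mature neutrophil-like mean is 415.

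Single cells were compared at an equal depth of 1000 UMIs, to which each was thinned. At least 3 member UMIs were then found in 97.5% of late erythroid-like cells (mean over 7 mice), 87.2% of early erythroid-like, 67.3% of pre-BCR B-like, 62.4% of granulocyte-monocyte precursor-like and 54.2% of remaining B-lineage-like cells (means over 9 mice). The share was 38.8% of stem or early progenitor-like, 25.7% of monocyte-like and 16.8% of immature neutrophil-like cells. Of mature neutrophil-like cells, which no longer divide, 2.03% passed, and of plasma cell-like cells 0 of 174, which allows a share of up to 1.72%. Both are classes that should lack these transcripts, at median depths of 1716 and 9274 UMIs per cell before thinning. The 174 cells were pooled over mice, 57 of them from NZBWF1 replicate 3, and the limit of 1.72% covers counting error only. Thinning lowered the mean of plasma cell-like cells from 1.57 to 0.149 member UMIs, so the limit holds for thinned cells only. Without thinning, 97.8% of granulocyte-monocyte precursor-like, 76.8% of stem or early progenitor-like, 43.5% of monocyte-like, 34.8% of immature neutrophil-like, 4.02% of mature neutrophil-like and 23.2% of plasma cell-like cells passed. The shares depended on the limits set. At 5 member UMIs they were 33.2% of granulocyte-monocyte precursor-like, 24.7% of stem or early progenitor-like, 14.4% of monocyte-like and 7.10% of immature neutrophil-like cells. Among cells of at least 2000 UMIs and 1000 genes alone they were 40.4% of monocyte-like, 37.7% of immature neutrophil-like and 24.1% of mature neutrophil-like cells, of which this limit left 77 of 1932.

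The remaining B-lineage-like cells varied widely between mice of 1 strain. The share passing was 40.9, 75.5 and 68.5% in NZB, 37.1, 68.6 and 43.8% in NZW and 31.4, 70.03 and 52.4% in NZBWF1 mice. In each strain the mouse with replicate number 1 was lowest and number 2 highest, and the strains overlapped. The summed level of immature neutrophil-like cells had the same order, at 1071, 1588 and 1435 CPM in NZB, 1205, 1671 and 1386 in NZW and 1374, 1571 and 1448 in NZBWF1 mice. Cells with at least 3 member UMIs but none of 30 transcripts of the G2 phase and mitosis were 13% of stem or early progenitor-like, 12.0% of NK-like and 9.93% of granulocyte-monocyte precursor-like cells.

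Member by member, 32 of the 41 had their highest mean level in late erythroid-like cells. The other 9 peaked elsewhere. Cdca7 and Hells, partners in nucleosome remodelling for DNA methylation, Gins2, a subunit of the active helicase, and Ubr7 peaked in pre-BCR B-like cells. Wdr76, Usp1, a deubiquitinase of the clamp, and Brip1, a repair helicase, peaked in remaining B-lineage-like cells. Exo1, a nuclease of mismatch repair, peaked in early erythroid-like cells, and Ung, which removes uracil from DNA, in stem or early progenitor-like cells. The lowest level was in plasma cell-like cells for 34 members, in mature neutrophil-like cells for 6 and in immature neutrophil-like cells for 1. This order is of levels relative to all UMIs of a class, not of counts per cell. Unthinned plasma cell-like cells held a mean of 1.57 member UMIs at a median depth of 9274.5 UMIs. Mature neutrophil-like cells held 0.722 at 1715.5.

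**Figure D2:**
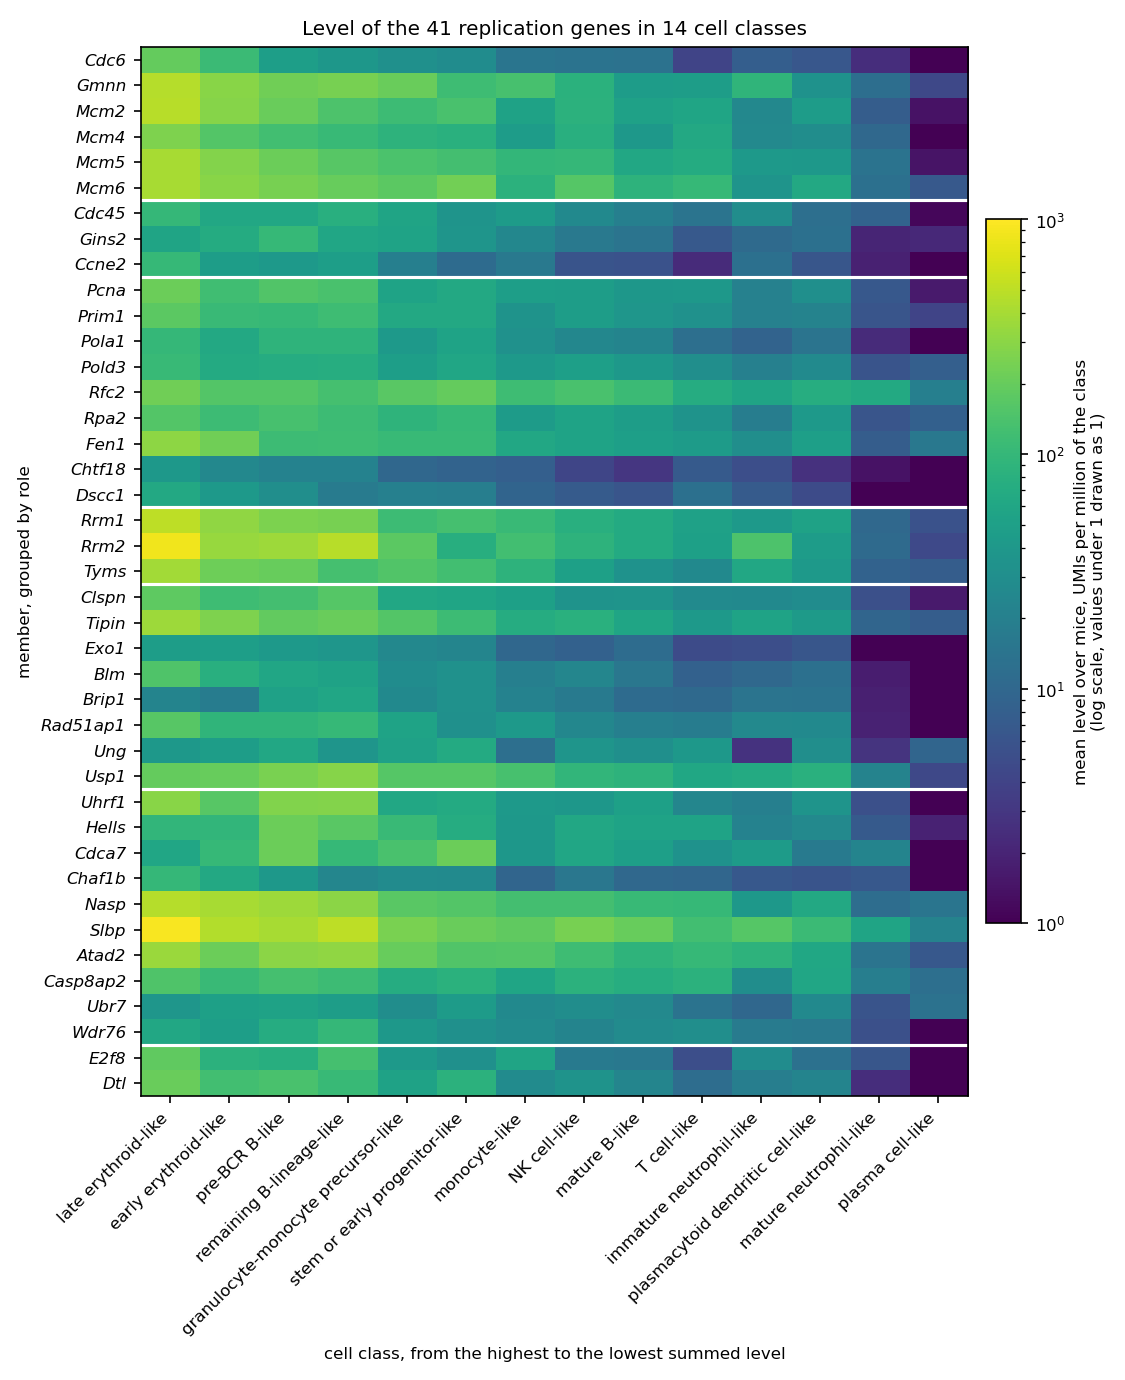
Mean level over mice of each member in 14 cell classes, as CPM of the class on a log colour scale. Rows are members grouped by role with white lines between roles, and columns run from the highest to the lowest summed level. For 32 of 41 members the highest mean is in the leftmost column, late erythroid-like cells.

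The abundance of the members spanned a wide range. Because only 3' ends were counted, a level here is a count of transcripts and needs no correction for length. Over all kept cells of a mouse, Slbp, which binds the stem loop of histone messages, was at 214, 245 and 256 CPM in NZB, 227, 293 and 279 in NZW and 255, 286 and 241 in NZBWF1 mice. Rrm2, the regulated subunit of ribonucleotide reductase, was at 145, 192 and 196, 193, 275 and 229 and 183, 200.1 and 179, in the same order. The strains overlapped for both. Nasp, a histone chaperone, was at 140.4, 155 and 167 in NZB, 162, 224 and 186 in NZW and 153, 164 and 152 in NZBWF1 mice. Gmnn, which blocks a second licensing of origins, was at 141, 167 and 163, 144, 189.6 and 154 and 137, 155 and 134. Atad2, a chromatin ATPase, was at 128, 174 and 154, 146, 181 and 156 and 138, 153 and 139. For these 3 members, too, the values of the strains overlapped.

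The scarcest members were Exo1, Dscc1 and Chtf18, with means of 18.9, 16.98 and 10.8 over the 9 mice against 255 for Slbp. Exo1 was at 15.2, 17.6 and 18.9 in NZB, 16.9, 22.3 and 20.98 in NZW and 16.9, 22.5 and 18.8 in NZBWF1 mice. Dscc1 and Chtf18, subunits of a clamp loader that serves sister chromatid cohesion, were at 13.3, 12.9 and 15.9 and 9.15, 9.24 and 9.46 in NZB mice, respectively. In NZW mice they were at 18.4, 24.2 and 18.3 and 10.2, 14.3 and 12.8, and in NZBWF1 mice at 16.9, 17.3 and 15.8 and 11.3, 10.6 and 10.4. Chtf18 was lower in every NZB mouse than in any mouse of the other strains, and Dscc1 was higher in every NZW mouse than in any other, with overlap of NZB and NZBWF1. For Exo1 the strains overlapped. These sums over all cells also carry the mix of classes in each mouse. Within classes, neither Chtf18 nor Dscc1 was called by edgeR between any strains in the 7 classes in which each was tested.

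In the B and neutrophil lineages the levels were lower in the mature class. Between an earlier and a later class of the same mice, edgeR's quasi-likelihood test with the mouse as a block was used, and a member was called at an adjusted p under 0.05. The B-lineage step left out the remaining B-lineage-like cells, whose summed level was near that of pre-BCR B-like cells. From pre-BCR B-like to mature B-like cells, 37 members could be tested and all 37 were higher in pre-BCR B-like cells, with a median log2 fold change of 2.02 (all genes -0.01), where 32.6% of all genes tested were higher. Between immature and mature neutrophil-like cells, 32 of 33 tested members were higher in the immature cells, with a median of 1.91 (all genes 0.05), against 31.6% of all genes. The other replication genes, 49 genes of the same machinery, were higher for 42 of 43 tested in the B-lineage step and for 31 of 32 in the neutrophil step. The members left out of a test had too few counts to pass its filter, so the counts do not stand for all 41.

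The log2 fold change of a step differed between members. Gins2 stood highest above the median member by the mean signed distance over the 3 steps in which it was tested. This is not a rank by size of change, since a member without change in the erythroid step, described below, also stood above the median there. Gins2 was at 0.05 (SE 0.14, adjusted p = 0.784) in that step and was not tested in the neutrophil step. It was at 63.6, 89.9 and 99.7 CPM in pre-BCR B-like cells of NZB, 127, 134 and 130.1 of NZW and 96.7, 93.9 and 91.5 of NZBWF1 mice, against 6.30 to 23.5 in mature B-like cells of the 9 mice. The classes did not overlap, and the log2 fold change was 2.90 (SE 0.18, adjusted p = 1.29e-17). Rfc2, a subunit of the main clamp loader, stood lowest. In immature neutrophil-like cells it was at 45.8, 55.5 and 51.97 in NZB, 59.4, 62.0 and 60.2 in NZW and 51.97, 58.6 and 57.3 in NZBWF1 mice, and in mature neutrophil-like cells at 76.3, 44.2 and 36.2, 82.8, 79.3 and 69.3 and 59.6, 73.5 and 70.1. The classes overlapped, and the difference of -0.19 (SE 0.12, adjusted p = 0.168) was not called.

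Casp8ap2, which takes part in histone message production, was next lowest. It was at 77.8, 119.8 and 165 in pre-BCR B-like cells of NZB, 139, 139 and 135 of NZW and 140.1, 136 and 118 of NZBWF1 mice, and at 50.5 to 94.5 in mature B-like cells of the 9 mice. The ranges overlapped, with a called change of 0.78 (SE 0.12, adjusted p = 3.43e-07). The largest changes in the neutrophil step were of Rrm2, 3.92 (SE 0.30, adjusted p = 4.04e-07), and of Rad51ap1, 3.88 (SE 0.40, adjusted p = 2.23e-09).

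The erythroid lineage ran the other way. In the 7 mice with both classes, 33 of 41 members were lower in early than in late erythroid-like cells, with a median of -0.76 (all genes 0.06), against 25.7% of all genes. All 6 licensing genes, all 9 genes of the polymerases, clamp and clamp loaders and all 3 genes of deoxynucleotide supply were among them. Rrm2 changed most, by -1.47 (SE 0.06, adjusted p = 8.88e-32), followed by E2f8, a repressor that acts late in S phase, by -1.42 (SE 0.11, adjusted p = 5.77e-19). Only Cdca7 was higher in early erythroid-like cells, against 30.6% of all genes. It was at 80.2 to 132 there in 9 mice and at 40.6 to 97.1 in late erythroid-like cells of 7, so the ranges overlapped, and the log2 fold change within mice was 0.88 (SE 0.14, adjusted p = 2.07e-07). The 30 G2 and mitosis genes were all lower in early erythroid-like cells too. These changes are relative to all RNA counted in a class. Unthinned cells held a mean of 63.3 member UMIs in early and 58.2 in late erythroid-like cells. Their median depths were 9988 and 5661.5 UMIs, and the part of this difference in depth was not tested.

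Between granulocyte-monocyte precursor-like and monocyte-like cells, most replication genes but few mitosis genes were called higher in the precursors. Of 41 members, 39 were higher in the precursors, with a median of 0.80 (all genes 0.00), against 37.3% of all genes. Of the 30 G2 and mitosis genes, 5 were higher and 11 lower. The share of all genes that were lower is not given here, so the 11 are not read as a result about these genes. Ung was higher by 2.43 (SE 0.15, adjusted p = 1.28e-15) and Cdca7 by 2.11 (SE 0.09, adjusted p = 5.25e-20). Cdca7 was at 108, 88.6 and 137 in precursor-like cells of NZB, 147, 159.8 and 153 of NZW and 142, 149.8 and 144 of NZBWF1 mice, and at 21.4 to 48.4 in monocyte-like cells of the 9 mice, with no overlap. E2f8 and Chtf18 were not called, at -0.20 (SE 0.09, adjusted p = 0.0539) and 0.38 (SE 0.21, adjusted p = 0.0962).

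Cells that held transcripts of the G2 phase and mitosis were then set against cells of the same class that held none. The split used 30 genes, none of them a member, with at least 2 UMIs for 1 side and 0 for the other. In immature neutrophil-like cells all 36 tested members were higher in cells with such transcripts, with a median of 1.98 (all genes 0.00), against 36.8% of all genes. In monocyte-like cells all 32 tested were higher, with a median of 1.79 (all genes -0.02), against 23.2%. In pre-BCR B-like cells of 8 mice, 24 of 27 were higher, with a median of 1.02 (all genes -0.01), against 24.3%. The cells with such transcripts were deeper in all 3 classes, with medians of 3542 against 2158 UMIs in immature neutrophil-like, 3115 against 1695 in monocyte-like and 4053 against 1352 in pre-BCR B-like cells, and its part was not tested. In early erythroid-like cells only 58 cells lacked these transcripts, and the split could not be fitted.

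Genes of deoxynucleotide supply and of repair had the largest differences. In monocyte-like cells Rad51ap1 differed by 4.35 (SE 0.30) and Rrm2 by 3.84 (SE 0.20), and in immature neutrophil-like cells Rrm2 differed by 3.57 (SE 0.11). Rrm2 was at 241 to 306, median 262 in immature neutrophil-like cells with and at 9.83 to 31.9, median 15.7 in those without over the 9 mice, with no overlap. The smallest differences in these 2 classes were of Rfc2, 0.68 (SE 0.09) and 0.52 (SE 0.11), and of Casp8ap2, 0.75 (SE 0.12) and 0.56 (SE 0.14). In pre-BCR B-like cells Mcm4 and Mcm6, subunits of the helicase, and Casp8ap2 were not called, at 0.31 (SE 0.18, adjusted p = 0.148), 0.24 (SE 0.13, adjusted p = 0.123) and -0.05 (SE 0.16, adjusted p = 0.820).

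Granulocyte-monocyte precursor-like cells differed from these 3 classes. Of 39 tested members, 6 were higher and 15 lower in the 1981 cells with G2 and mitosis transcripts than in the 497 cells without, with a median of -0.21 (all genes -0.03). Among all genes 6.86% were higher and 8.03% lower. Of the 6 licensing genes, 5 were lower: Mcm2 by -0.66 (SE 0.11), Mcm4 by -0.71 (SE 0.12), Mcm5 by -0.38 (SE 0.10), Mcm6 by -0.56 (SE 0.10) and Cdc6, which loads the helicase, by -0.62 (SE 0.20). The exception, Gmnn, was not called. All 3 genes of deoxynucleotide supply were higher, Tyms by 0.59 (SE 0.11), Rrm2 by 0.53 (SE 0.10) and Rrm1 by 0.35 (SE 0.12).

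The change was largest for Ung. It was at 30.6, 21.2, 33.3, 42.8, 29.5, 28.5, 54.4, 31.9 and 42.7 CPM in cells with such transcripts of the NZB, NZW and NZBWF1 mice in order, and at 74.1, 105, 147, 90.2, 131, 62.95, 139.7, 111 and 145 in cells without. Every value without lay above every value with, and the difference was -1.77 (SE 0.14, adjusted p = 1.23e-16). Dtl, which marks licensing factors for destruction, was lower by -0.86 (SE 0.16), Cdca7 by -0.84 (SE 0.10), Hells by -0.68 (SE 0.11) and Chaf1b, a histone chaperone at the fork, by -0.79 (SE 0.22). E2f8, Brip1 and Rad51ap1 were the other members that were higher, by 0.88 (SE 0.24), 0.83 (SE 0.26) and 0.52 (SE 0.17).

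Other values moved with this split. The median depth was 5158 UMIs in precursor-like cells with and 4158 in cells without. The 9 stem cell markers summed to 170 to 263 CPM with and to 201 to 569 without. Over all precursor-like cells of a mouse, 8 or 9 of the 9 were detected. The monocyte markers summed to a median of 1548 with and 1188 without. Their part in the result was not tested. Without NZB replicate 2, 9 members were lower in place of 15.

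**Figure D3:**
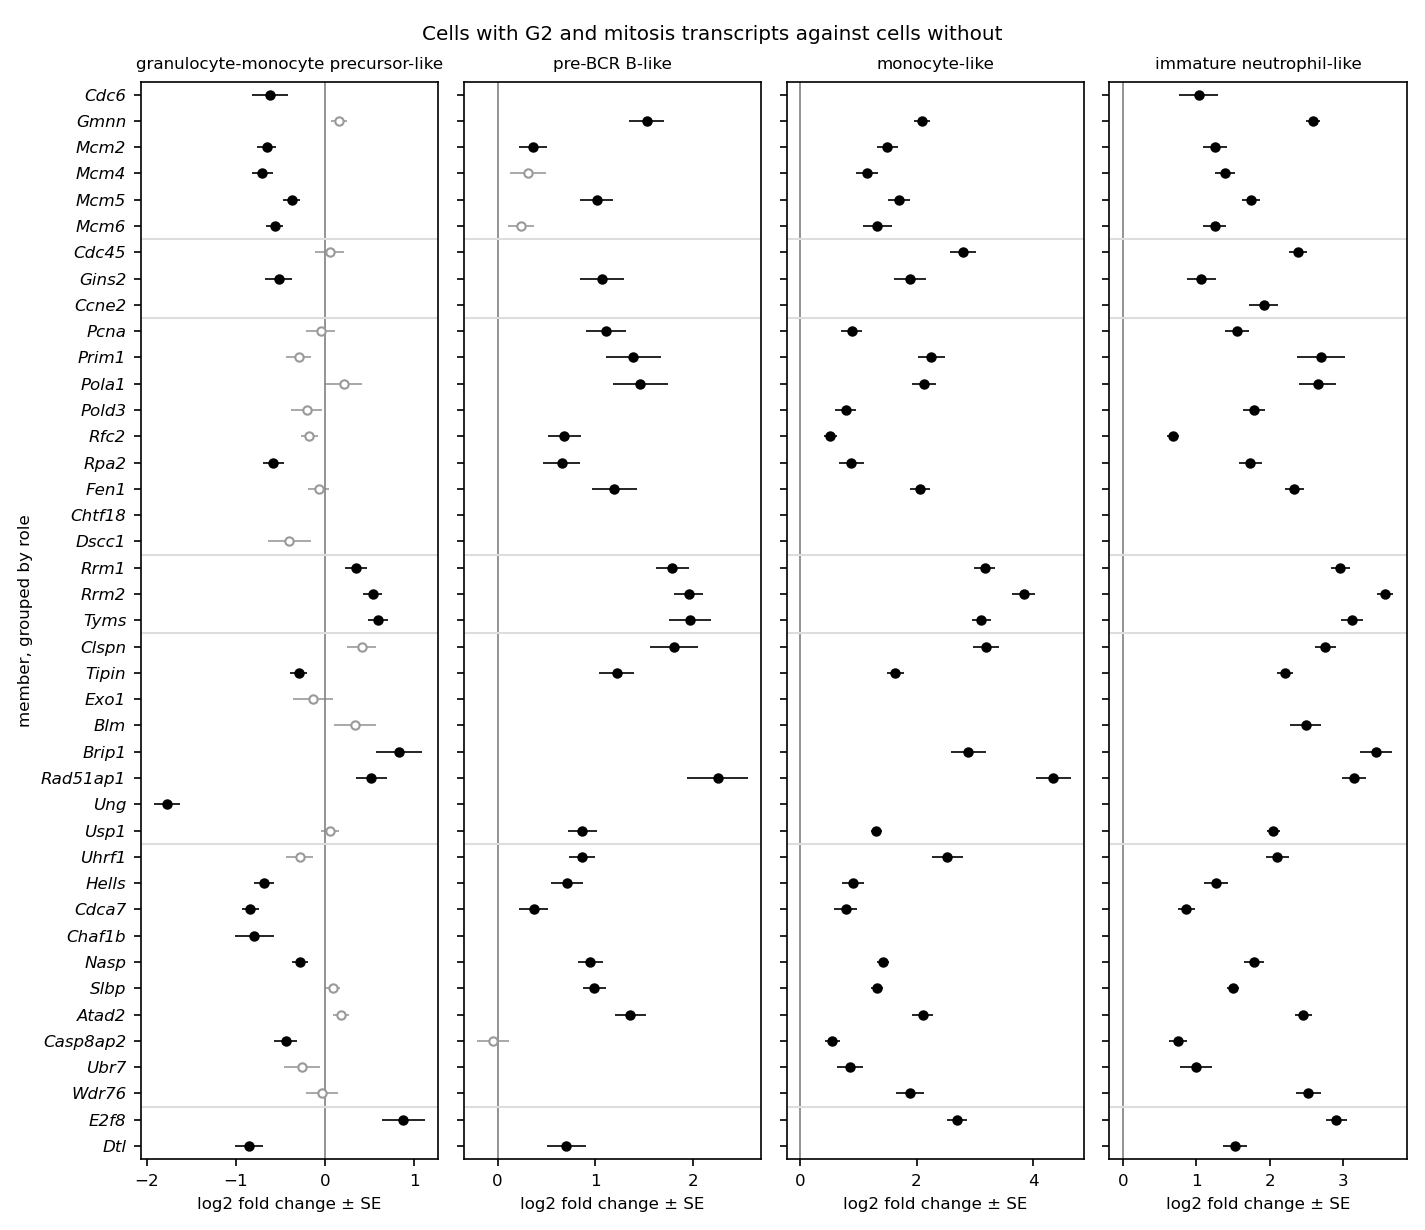
Log2 fold change (± SE) of each member between cells with at least 2 and cells with 0 UMIs of G2 and mitosis genes, in 4 classes with separate horizontal axes. Filled points had an adjusted p under 0.05 and open points did not. The panel of granulocyte-monocyte precursor-like cells has 6 filled points above and 15 below 0, and the monocyte-like panel has 32 above 0.

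The strains were compared within each of 13 classes by edgeR's quasi-likelihood test over the 9 mice, or 7 mice in late erythroid-like cells. This gave 390 tests of members in all. Between the parents, 26 were called (6.67%), 20 higher and 6 lower in NZB mice, of 16 members in 8 classes, while 7.88% of the tests of all genes were called. NZBWF1 differed from NZB mice in 12 tests (3.08%, all genes 3.43%), 3 higher and 9 lower in NZBWF1. It differed from NZW mice in 9 (2.31%, all genes 1.0%), 5 higher and 4 lower, and these comparisons share mice. For NZBWF1 and the parents' average log level, 2 tests were called (0.513%, all genes 0.488%). Leaving out 1 mouse, NZB replicate 2, lowered the 26 calls to 15 and the 12 calls to 6. The 9 calls were 15 with the replicate number as a block, and leaving out 1 mouse lowered them to 3 without NZW replicate 3, 4 without NZBWF1 replicate 3 and 5 without NZW or NZBWF1 replicate 2. The shares for members were near those for all genes except against NZW, where 5 of the 9 calls were of Pcna.

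Pcna, the sliding clamp, was called in the most classes. It was higher in NZB than in NZW mice in 7 of them, in each with no overlap of the 2 strains. In granulocyte-monocyte precursor-like cells it was at 83.4, 82.97 and 95.9 CPM in NZB, 24.98, 34.4 and 20.3 in NZW and 41.3, 49.8 and 57.8 in NZBWF1 mice, with NZBWF1 between the parents. The log2 fold change of NZB against NZW was 1.61 (SE 0.16, adjusted p = 3.89e-12), where 11.5% of all genes differed in this class. In pre-BCR B-like cells, of which NZB mice had 40, 65 and 77, it was at 226, 204 and 226, 68.2, 93.2 and 68.5 and 175, 153 and 167, and the fold change was 1.48 (SE 0.18, adjusted p = 8.37e-09), where 2.14% of all genes differed. The remaining 5 classes gave 1.51 (SE 0.17) in monocyte-like, 1.27 (SE 0.20) in immature neutrophil-like, 1.23 (SE 0.12) in early erythroid-like, 1.15 (SE 0.19) in late erythroid-like and 1.22 (SE 0.22) in remaining B-lineage-like cells. Of all genes, 6.86% differed in early erythroid-like, 4.06% in late erythroid-like and 2.2% in remaining B-lineage-like cells. In the late erythroid-like fit the NZB mice were replicates 2 and 3 only, with 46 and 32 cells.

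These values are uncertain, because a pseudogene of Pcna could have taken part of the reads. The sequences of the gene and its pseudogene were not compared. Pcna lies on chromosome 2, at 132249162 to 132253314 on the minus strand, and Pcna-ps2, a processed pseudogene, on chromosome 19 at 9283380 to 9284160 on the plus strand (GENCODE vM21, GRCm38). Over all kept cells, the NZB mice had 8, 10 and 5 UMIs of Pcna-ps2, the NZW mice had 232, 384 and 338, and the NZBWF1 mice had 87, 207 and 110. This was 0.549% to 1.37% of the UMIs of both genes in NZB, 33.7% to 35.1% in NZW and 8.68% to 14.4% in NZBWF1 mice, so that the strains did not overlap. Whether transcripts of Pcna were counted under the pseudogene in mice with an NZW genome was not tested.

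With the UMIs of both summed, an alternative chosen after seeing the data, NZB was still called higher than NZW in 5 of the 7 classes. The difference was 1.02 (SE 0.15, adjusted p = 3.13e-07) in granulocyte-monocyte precursor-like, 0.89 (SE 0.16, adjusted p = 6.64e-05) in monocyte-like and 0.78 (SE 0.17, adjusted p = 0.00188) in pre-BCR B-like cells. It was 0.78 (SE 0.19, adjusted p = 0.00544) in immature neutrophil-like and 0.61 (SE 0.12, adjusted p = 6.83e-04) in early erythroid-like cells. In late erythroid-like cells, where the parents did not overlap, and in remaining B-lineage-like cells, where they did, it was no longer called, at 0.48 (SE 0.18, adjusted p = 0.133) and 0.67 (SE 0.22, adjusted p = 0.135). The summed level in granulocyte-monocyte precursor-like cells was 84.0, 83.3 and 95.9 in NZB, 37.5, 50.2 and 32.6 in NZW and 46.8, 57.8 and 61.9 in NZBWF1 mice, with no overlap of NZB and the others. Of the 5 classes in which Pcna was higher in NZBWF1 than in NZW mice, the sum was called in 2, early erythroid-like at 0.52 (SE 0.12, adjusted p = 0.0201) and pre-BCR B-like at 0.49 (SE 0.12, adjusted p = 0.0284).

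**Figure D4:**
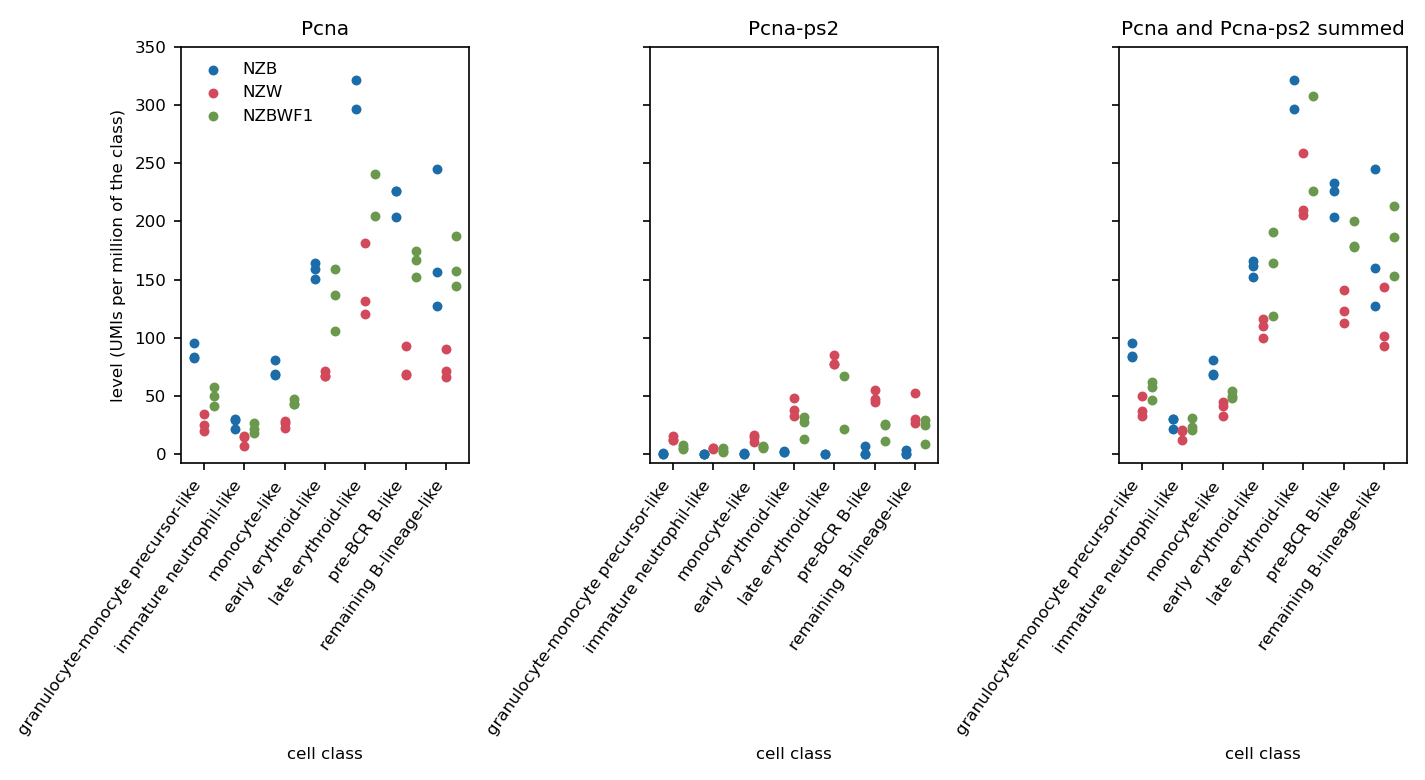
Level of Pcna, of the pseudogene Pcna-ps2 and of both summed in 7 classes, in CPM of the class. Each point is 1 mouse, coloured by strain. NZB mice are above NZW mice for Pcna in all 7 classes and near 0 for Pcna-ps2, and the gap is smaller for the sum.

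Cdca7 went the other way in the granulocyte lineage. In immature neutrophil-like cells it was at 21.5, 18.0 and 19.6 CPM in NZB, 56.1, 67.05 and 71.8 in NZW and 46.7, 51.7 and 44.3 in NZBWF1 mice. The 3 strains did not overlap, with NZBWF1 between the parents. NZB differed from NZW by -1.61 (SE 0.14, adjusted p = 5.09e-09) and NZBWF1 from NZB by 1.13 (SE 0.15, adjusted p = 1.25e-05), where 12.1% and 4.94% of all genes differed. In granulocyte-monocyte precursor-like cells the level was lower in NZB too, by -0.59 (SE 0.12, adjusted p = 3.14e-04), and all 3 NZB mice lay below the others.

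The difference in Cdca7 was not the same in every class. In early erythroid-like cells it was at 80.2, 99.02 and 106 in NZB, 87.4, 117 and 108 in NZW and 132, 106 and 93.6 in NZBWF1 mice, with overlap of all 3. In pre-BCR B-like cells it was at 177, 138 and 219, 233, 223 and 214 and 236, 248 and 218, also with overlap. A test of the difference itself gave -1.53 (SE 0.19, adjusted p = 3.34e-12) between immature neutrophil-like and early erythroid-like cells, where 3.56% of all genes differed in this way. It gave 1.22 (SE 0.22, adjusted p = 3.28e-05) between pre-BCR B-like and immature neutrophil-like cells, where 1.19% did. Between pre-BCR B-like and early erythroid-like cells 0 of 41 members were called by edgeR, with 6 at an unadjusted p under 0.05, and 0.672% of all genes were.

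Rrm2 turned direction between lineages. In granulocyte-monocyte precursor-like cells it was at 211, 209 and 220.0 in NZB, 145, 156 and 119 in NZW and 187, 163 and 157 in NZBWF1 mice, and NZB was higher than NZW by 0.52 (SE 0.11, adjusted p = 6.93e-04). In early erythroid-like cells it was at 271, 281 and 315, 444, 419.6 and 398 and 439.7, 299 and 248, and NZB was lower than NZW by -0.50 (SE 0.12, adjusted p = 0.00707). The parents did not overlap in either class. Whether the difference of the parents differed between these classes was not tested. The difference of the parents differed between immature neutrophil-like and early erythroid-like cells for Rrm2 by 0.77 (SE 0.15, adjusted p = 1.67e-04), for E2f8 by 0.86 (SE 0.22, adjusted p = 0.0109) and for Mcm5 by 0.66 (SE 0.16, adjusted p = 0.00464). In immature neutrophil-like cells alone Rrm2 was not called between the parents.

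**Figure D5:**
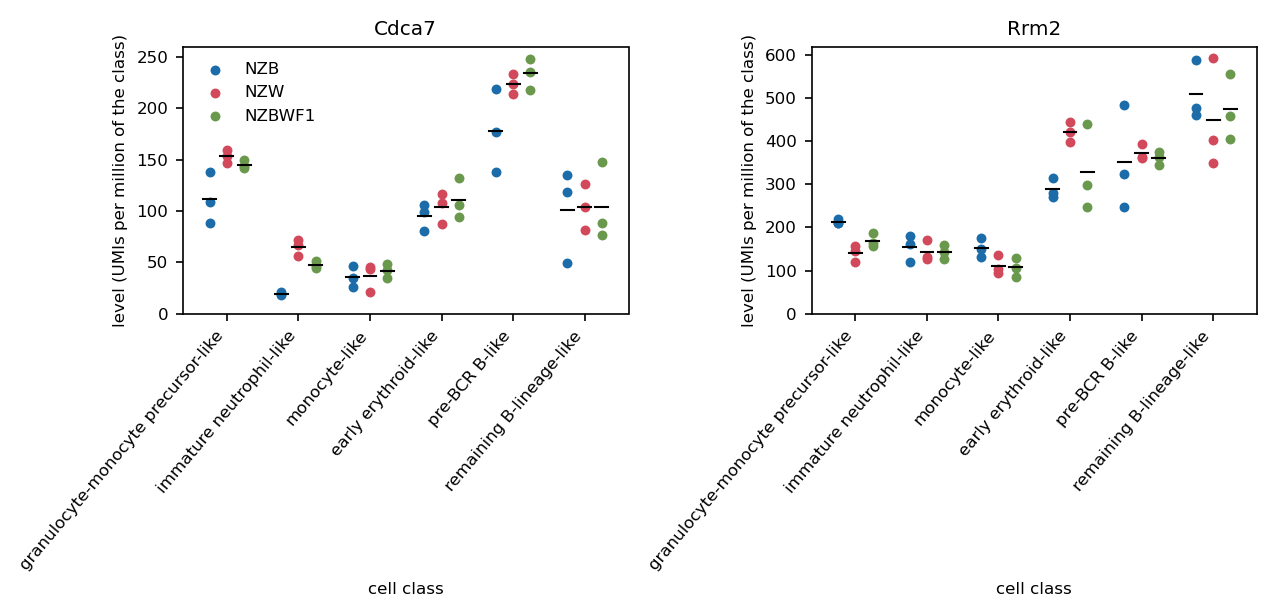
Level of Cdca7 and of Rrm2 in 6 classes, in CPM of the class. Each point is 1 mouse, coloured by strain, and black lines are strain means. For Cdca7 the 3 NZB mice lie at 18.0 to 21.5 in immature neutrophil-like cells, below the other strains, and for Rrm2 NZB is above NZW in granulocyte-monocyte precursor-like and below it in early erythroid-like cells.

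In monocyte-like cells 10 of 41 members were higher in NZB than in NZW mice and none was lower (7 and 0 with DESeq2). All 16 members at an unadjusted p under 0.05 were higher in NZB, and over the 41 the log2 fold change had a median of 0.33 (all genes -0.01), against 11.4% of all genes that were higher. They spanned the steps of replication: Gmnn at licensing, Cdc45 at firing, Prim1, the primase, and Pcna at synthesis, Rrm2 and Tyms in supply, Clspn in the checkpoint, and Slbp, Chaf1b and Atad2 in chromatin. Gmnn was at 181, 175 and 167 in NZB, 105, 119 and 116 in NZW and 145, 103 and 105 in NZBWF1 mice. All NZB mice lay above the others, and the fold change against NZW was 0.62 (SE 0.12, adjusted p = 1.69e-04). Slbp was at 191, 218 and 207, 145, 182 and 156 and 204, 186 and 178, with no overlap of the parents, and differed by 0.36 (SE 0.11, adjusted p = 0.0149).

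Atad2 and Blm, a repair helicase, were the only 2 members called between NZBWF1 mice and the mean of their parents in any class, both lower in monocyte-like cells, where 0.812% of all genes were lower. Neither was called without NZB replicate 2, NZW replicate 2 or NZBWF1 replicate 3, when 0 members were called, and 1 member was called without replicate 3 of either parent. Atad2 was at 184, 223 and 186 in NZB, 124, 165 and 144 in NZW and 128, 130.1 and 123 in NZBWF1 mice. NZBWF1 overlapped NZW and lay below NZB, and the difference was -0.44 (SE 0.11, adjusted p = 0.0191). Blm was at 17.9, 29.8 and 30.7, 14.01, 22.1 and 24.6 and 15.5, 11.5 and 10.5, from 9 to 48 UMIs per mouse. NZBWF1 lay below NZB and overlapped NZW, and the difference was -1.004 (SE 0.26, adjusted p = 0.0266).

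Other readouts of monocyte-like cells moved with these genes. Of 30 G2 and mitosis genes 21 were higher in NZB than in NZW mice, and of 48 other replication genes tested 9 were, against 11.4% of all genes. Cells with at least 2 G2 and mitosis UMIs made up 46.9, 72.2 and 53.8% in NZB, 32.3, 33.4 and 34.2% in NZW and 33.2, 29.8 and 32.0% in NZBWF1 mice, with NZB above the rest. The 6 markers of granulocyte-monocyte precursors, led by Prtn3, summed to 939 to 1524 CPM in NZB, 657 to 694 in NZW and 510 to 590 in NZBWF1 mice, with 5 or 6 of them detected and Gfi1 the one at 0 in some mice. Prtn3, Elane and Ms4a3 were higher in every NZB than in any NZW mouse, Ctsg was lower, at 90.8 to 123 in NZB and 131 to 147 in NZW mice, and Mpo and Gfi1 overlapped. In NZBWF1 mice 25 of the 30 G2 and mitosis genes were lower than in NZB mice (all genes 7.32%). Against the mean of the parents 15 were lower (all genes 0.812%), and none was higher in either comparison. The part of these readouts was not tested. Among monocyte-like cells with G2 and mitosis transcripts alone, 1 member was called, Pcna at 1.40 (SE 0.20, adjusted p = 9.08e-07), and without NZB replicate 2, 4 were called.

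Smaller sets of members differed in other classes. In granulocyte-monocyte precursor-like cells 4 of 41 were higher in NZB than in NZW mice (all genes 5.45%) and 1 lower (all genes 6.08%). Besides Pcna, Rrm2 and Cdca7 these were Slbp, at 261, 265 and 296 in NZB and 206, 199 and 209 in NZW mice, and Nasp, at 192, 190.2 and 225 and 146, 158 and 141. Neither overlapped, with differences of 0.32 (SE 0.11, adjusted p = 0.0391) and 0.35 (SE 0.11, adjusted p = 0.0311). The share of precursor-like cells with at least 2 G2 and mitosis UMIs was 75.5, 75.9 and 74.6% in NZB, 59.4, 63.04 and 53.2% in NZW and 56.5, 55.3 and 70.2% in NZBWF1 mice, with no overlap of the parents, and 5 of the 30 G2 and mitosis genes were higher in NZB than in NZW mice. Their part was not tested. In immature neutrophil-like cells E2f8 differed by 0.60 (SE 0.19, adjusted p = 0.0334) with overlapping mice, and Ung by -1.55 (SE 0.50, adjusted p = 0.0413) on 2 to 19 UMIs per mouse, with no overlap of the parents.

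The cross differed from its parents mostly in the same classes. In monocyte-like cells 8 of 41 members were lower in NZBWF1 than in NZB mice (all genes 7.32%), with Blm at -1.20 (SE 0.29, adjusted p = 0.00332) and Atad2 at -0.68 (SE 0.12, adjusted p = 1.38e-04) among them. In granulocyte-monocyte precursor-like cells Ung was higher in NZBWF1 than in NZB mice by 0.58 (SE 0.16, adjusted p = 0.0202) (all genes 1.46%), at 45.6, 35.2 and 51.5 in NZB, 58.05, 49.1 and 45.004 in NZW and 61.9, 62.2 and 63.6 in NZBWF1 mice. Every NZBWF1 mouse lay above both parents. In pre-BCR B-like cells Gins2, whose values are given above, was lower in NZBWF1 than in NZW mice by -0.53 (SE 0.14, adjusted p = 0.0274) (all genes 0.508%), with no overlap.

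Plasmacytoid dendritic-like cells, the interferon-producing class, had 2 of 29 tested members lower in NZB than in NZW mice (all genes 3.74%). Rad51ap1 was at 12.96, 20.9 and 14.4 in NZB, 30.6, 54.2 and 54.6 in NZW and 19.8, 10.2 and 21.8 in NZBWF1 mice, from 5 to 15 UMIs per mouse. NZW lay above the others, and NZB differed from it by -1.47 (SE 0.39, adjusted p = 0.00552). Mcm5 differed by -1.03 (SE 0.31, adjusted p = 0.0210), at 29.2, 25.4 and 32.4 in NZB and 43.7, 41.7 and 93.5 in NZW mice. NZBWF1 mice were lower than NZW mice for Rad51ap1, Rrm1 and Tyms, by -1.39 (SE 0.40), -1.12 (SE 0.30) and -1.19 (SE 0.33) (all genes 0.927%). The share of these cells with G2 and mitosis transcripts was 7.55, 11.3 and 16.9% in NZW, 4.89% to 6.58% in NZB and 3.96% to 8.83% in NZBWF1 mice. Of the 9 stem cell markers, Flt3, which dendritic cells also express, was at 148 to 226 CPM in NZW, 109 to 130 in NZB and 115 to 142 in NZBWF1 mice, while Mecom was at 0 in every mouse and the other 7 overlapped between the parents. Their part was not tested. With DESeq2, 0 members were called in this class.

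The other 2 lists of cell cycle genes were counted over the same 13 classes. Of 425 tests of the 49 other replication genes, 16 were higher and 8 lower in NZB than in NZW mice. Orc6, a subunit of the origin recognition complex, had the smallest p, with 1.15 (SE 0.19, adjusted p = 1.62e-05) in monocyte-like and 0.71 (SE 0.13, adjusted p = 3.13e-05) in granulocyte-monocyte precursor-like cells. Pclaf, a factor bound to the clamp, followed with 0.66 (SE 0.11, adjusted p = 3.78e-05), and Rfc4, a clamp loader subunit, with 0.83 (SE 0.17, adjusted p = 2.99e-04), both in monocyte-like cells. Of 303 tests of the G2 and mitosis genes, 32 were higher and 7 lower in NZB than in NZW mice, where 7.88% of the tests of all genes were called. In NZBWF1 mice 32 were lower than in NZB (all genes 3.43%), 6 lower than in NZW (all genes 1.0%) and 15 lower than the mean of the parents (all genes 0.488%), with none higher in any of the 3. Of the other replication genes, 1 was higher and 10 lower than in NZB, 0 were called against NZW by edgeR with 27 at an unadjusted p under 0.05, and 2 were lower than the mean of the parents. The 7 tests lower in NZB than in NZW were in plasmacytoid dendritic-like cells, among them Hmmr at -1.65 (SE 0.31, adjusted p = 2.99e-05) and Aurkb, a mitotic kinase, at -1.71 (SE 0.36, adjusted p = 3.81e-04).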

How the data were processed

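The deposited UMI counts were made by the authors from 10x 3' libraries, per the labels with Cell Ranger 3.1.0, bcl2fastq 2.20 and mm10, and joined into 1 matrix of 9 libraries. The library number on a barcode was matched to the order of the libraries in the deposited sample sheet, as Cell Ranger numbers them; this order is not stated in the sources used here. Barcodes were kept at 1000 or more UMIs, 500 or more genes and at most 10% mitochondrial UMIs (13 genes), 39051 of 68444. Cells were classed by 16 gates of 3 to 10 UMIs of marker genes, with no member and no cell cycle gene among the markers, and cells of more than 1 lineage were left out as possible doublets; no doublet caller was run. Counts were summed per class and mouse where a mouse had at least 10 cells.

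The sums were fitted over all genes with edgeR 4.0.16 in R 4.3.3 (quasi-likelihood test, TMM, filterByExpr) with all 3 strains in the fit, and p-values were adjusted by the Benjamini-Hochberg method over all genes of a fit, with a threshold of 0.05. Class steps, the split by G2 and mitosis transcripts and the difference of strain effects between classes had the mouse as a block, and SE is the log2 fold change over the root of F. DESeq2 1.42.0 was an alternative. Cells were thinned with numpy 2.4.6 in Python 3.11.15. The fits were tested on simulated data. The amount of free RNA per droplet was taken from barcodes of 10 to 99 UMIs, and its make-up from all barcodes under 100 UMIs. Floors cover counting error only. The members and lists were chosen with earlier results of these data known. Named with values in every mouse were members called in the most classes between the parents or called between NZBWF1 and the mean of the parents' logs, the 5 most and 3 least abundant, and the 2 farthest above and below the median member over the class steps. Members are named by symbol, and all 41 matched GENCODE vM21.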

Additional observations from a re-analysis of the deposited data

Results flagged for a closer look

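For 4 members the difference between NZB and NZW mice was itself different between 2 classes, by a test of that difference across all genes with edgeR's quasi-likelihood test. The change in the log2 fold change was 1.22 for Cdca7 between pre-BCR B-like and immature neutrophil-like cells, where 1.19% of all genes were called. Between immature neutrophil-like and early erythroid-like cells it was -1.53 for Cdca7, 0.86 for E2f8, 0.77 for Rrm2 and 0.66 for Mcm5, where 3.56% of all genes were called. The difference for Cdca7 between immature neutrophil-like and early erythroid-like cells kept its direction and its side of the threshold under every alternative that could be fitted, and the other 4 kept their direction but lost the call under some. With DESeq2 the differences for E2f8, Rrm2 and Mcm5 were no longer called, and at 5% mitochondrial UMIs the 4 others than this one were not. Without NZB replicate 2 or NZW replicate 1, E2f8 and Mcm5 were not called, and without NZB replicate 3 the difference for Cdca7 between pre-BCR B-like and immature neutrophil-like cells was not. The causes were not tested.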

How the results depend on the processing

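Of 1093 recomputed values of 54 results for named members, 861 kept their direction and their side of the threshold, 232 kept the direction but were no longer called, and 0 reversed. The weakening settings reaching furthest were limits of 2000 UMIs and 1000 genes, leaving 17371 cells (28 results), and the use of cells with G2 and mitosis transcripts alone (26). Of the results, 7 held under every alternative that could be fitted.

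The counts of called members moved by more than 1.5 times as follows. With DESeq2 they were 17 for NZB against NZW (26), 4 for NZBWF1 against NZW (9), 1 against the average of the parents (2) and 2 for the differences between classes (5). With 2000 UMIs and 1000 genes they were 14, 4 for NZBWF1 against NZB (12), 0 against the average of the parents, 1 for monocyte-like cells higher in NZB (10), 7 for the neutrophil step (32) and 65 for the splits by G2 and mitosis transcripts (113). In cells with such transcripts they were 17, 4, 0 and 1 in that order of NZB against NZW, NZBWF1 against NZB, the average of the parents and monocyte-like cells, and in cells without 7, 3, 0 and 4, with 0 for NZBWF1 against NZW. At 5% mitochondrial UMIs they were 1 for NZBWF1 against NZW, 18 for monocyte-like cells, 16 for the pre-BCR B step (37), 5 for members lower in granulocyte-monocyte precursor-like cells with such transcripts (15) and 1 for the differences between classes. With a stricter gate monocyte-like cells gave 6. Without the filter on low counts they were 4 for the average of the parents, 9 for the lower members of granulocyte-monocyte precursor-like cells and 8 for the differences. Of 56 recomputed shares of cells with member UMIs, 42 moved by more than the spread between mice. At 5 member UMIs the share was 92.6% (97.5%) of late erythroid-like, 33.2% (62.4%) of granulocyte-monocyte precursor-like and 7.10% (16.8%) of immature neutrophil-like cells. Fewer cells and fewer genes entered the fits of the stricter settings, and the part of this, like any other cause, was not tested.

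Leaving out each mouse in turn gave 0 to 3 against the average of the parents, 15 to 33 for NZB against NZW, 6 to 15 for NZBWF1 against NZB and 3 to 11 for NZBWF1 against NZW. It gave 4 to 11 in monocyte-like cells, 37 to 40, 29 to 34, 33 to 35 and 39 to 40 for the pre-BCR B, neutrophil, erythroid and monocyte steps, 102 to 122 for the splits, 9 to 15 for their lower members in granulocyte-monocyte precursor-like cells and 3 to 7 for the differences. NZB replicate 2 gave the lowest count between the parents (15), against NZB (6), in monocyte-like cells (4) and in granulocyte-monocyte precursor-like cells (9), and 0 against the average of the parents and 3 for the differences. For NZBWF1 against NZW the count was 3 when NZW replicate 3 was left out, 4 for NZBWF1 replicate 3 and 5 for the replicate 2 of either strain. Against the average of the parents the count was 0 without NZW replicate 2 or NZBWF1 replicate 3 and 1 without NZB replicate 3 or NZW replicate 3, and the differences gave 3 without NZW replicate 1.

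The replicate number was tried as a block, and it gave 15 for NZBWF1 against NZW in place of 9. In no class did every pair of mice of the same number deviate together by a correlation over 0.1, so the numbers were not taken as pairs. Over all kept cells, 8 of 9 mice still correlated best with mice of their own number. The count was 8 in remaining B-lineage-like, 7 in immature neutrophil-like and in NK-like, 6 in plasmacytoid dendritic-like and 5 in early erythroid-like cells. It was 0 in granulocyte-monocyte precursor-like, 2 in mature B-like and 3 in monocyte-like and in pre-BCR B-like cells. In immature neutrophil-like cells the median correlation was 0.392 for same-number and -0.235 for other pairs. The other strain tests took no account of the number. No fit was possible for mature neutrophil-like and T-like cells at 2000 UMIs, for stem-like and late erythroid-like cells at 5% mitochondrial UMIs, for erythroid-like cells without G2 and mitosis transcripts, for stem-like, mature neutrophil-like, mature B-like, T-like and NK-like cells with them, or for the split of early erythroid-like cells. Depth limits the scarce members: Chtf18 and Dscc1 could be tested between strains in 7 of the 13 classes. Pcna summed with its pseudogene, an alternative chosen after seeing the data, left 24, 12 and 6 calls of NZB against NZW, NZBWF1 against NZB and NZBWF1 against NZW.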
